A study of Mus musculus with 8 samples.

Results

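The 9 genes described here encode the ligands and receptors of transforming growth factor-beta (TGF-beta), the activin subunit Inhba, the latency protein Ltbp1 and the induced matrix protein Tgfbi. They were taken by symbol from the 31053 genes counted in each library: Tgfb1, Tgfb2, Tgfb3, Inhba, Ltbp1, Tgfbr1, Tgfbr2, Tgfbr3 and Tgfbi. Single-cell RNA sequencing was performed on 8 large subcutaneous tumours of B16F10, a mouse melanoma line, with 1 library per tumour. The hosts were 4 mice of genotype Atf4wt/wt (2 male and 2 female) and 4 of genotype Atf4D/D (3 male and 1 female), all labelled as 12 weeks old. Per the study's methods, both genotypes carried the ubiquitous Rosa26::CreERT2 transgene and received tamoxifen, so that Atf4wt/wt mice also expressed the recombinase. In Atf4D/D hosts the loxP-flanked exons 2 and 3 of Atf4 were targeted in all host tissues, whereas the injected melanoma cells kept Atf4. Because every host cell type was targeted, a change in one cell type cannot be told apart from an effect of another. The labels call the samples biological replicates, and each is counted as 1 animal below.

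The 3 TGF-beta isoforms are secreted in a latent complex, in which Ltbp proteins tether the cytokine to the matrix until it is released. Free TGF-beta binds Tgfbr2, which recruits and phosphorylates Tgfbr1, and the co-receptor Tgfbr3 (betaglycan) presents ligand, Tgfb2 above all. Dimers of the Inhba product form activin A, a ligand of the same superfamily that binds other receptors and also acts through Smad2 and Smad3. In tumours the pathway is best known for fibroblast activation, matrix deposition and the restraint of immune cells.

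On the GRCm38 build, Tgfb1 lay at chr7:25687002-25705077, Tgfb2 at chr1:186622792-186705989, Tgfb3 at chr12:86056745-86079041 and Inhba at chr13:16011851-16031621. Ltbp1 lay at chr17:75005568-75392512 and Tgfbi at chr13:56609523-56639562. The receptors lay at chr4:47353222-47414931 for Tgfbr1, chr9:116084293-116175360 for Tgfbr2 and chr5:107106570-107289629 for Tgfbr3. Exons of Tgfb2 overlapped the antisense gene Gm29491, which was also counted. Exons of Tgfb3 (Gm37804 and Gm48008, opposite strand) and Tgfbr3 (Gm43422, same strand) overlapped genes outside the counted set, and no effect of these overlaps on the counts was tested. Tgfb3 and Tgfbr3 had no promoter window. The 250 bases before the start of transcription are shown for Inhba, Tgfb1 and Tgfbr2, which were called in the same fibroblast subclusters below, as was Tgfbr3. They are read 5′ to 3′ on the strand of the gene, from RefSeq on GRCm38.p6, and capitals mark the letters GCGTG or their reverse complement CACGC.
Inhba promoter (chr13:16011601-16011850, plus strand): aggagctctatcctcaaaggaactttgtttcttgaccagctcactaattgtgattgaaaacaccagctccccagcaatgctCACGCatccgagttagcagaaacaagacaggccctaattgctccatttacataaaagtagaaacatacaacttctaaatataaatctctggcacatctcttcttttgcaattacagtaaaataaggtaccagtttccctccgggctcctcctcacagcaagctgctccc
Tgfb1 promoter (chr7:25686752-25687001, plus strand): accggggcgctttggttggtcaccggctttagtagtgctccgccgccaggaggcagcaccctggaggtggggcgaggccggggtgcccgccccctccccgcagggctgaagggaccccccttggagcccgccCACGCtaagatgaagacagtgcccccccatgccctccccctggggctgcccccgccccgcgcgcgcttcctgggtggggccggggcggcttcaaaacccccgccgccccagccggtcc
Tgfbr2 promoter (chr9:116175364-116175613, minus strand): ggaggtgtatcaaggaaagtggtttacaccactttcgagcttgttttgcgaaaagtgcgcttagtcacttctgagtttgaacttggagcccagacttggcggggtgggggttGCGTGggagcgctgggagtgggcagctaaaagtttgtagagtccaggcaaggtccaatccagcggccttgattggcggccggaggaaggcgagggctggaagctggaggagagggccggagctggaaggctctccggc
The windows of 7 of the 9 members were searched on both strands for ACGTG and GCGTG (the core letters of the hypoxia response element), TGANTCA (AP-1) and TGATGNAA (the composite element of ATF4). Each of the 3 windows above held GCGTG once, 169, 118 and 138 bases before the start for Inhba, Tgfb1 and Tgfbr2, and none of the other 3 motifs. GCGTG was present in 28.2% of all 32851 promoter windows of this length, ACGTG in 16.6%, TGANTCA in 6.75% and TGATGNAA in 3.45%. Among the other members searched, GCGTG was also in windows of Tgfbr1 and Tgfbi, and ACGTG in that of Ltbp1. Tgfb2 held ACGTG in its palindromic form, matched on both strands, and TGATGNAA was in no member's window.

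The libraries held 37283598 to 74942137 unique molecular identifiers (UMIs), and 28411 of 41925 barcodes passed the limits on gene number and mitochondrial share. Clusters were formed without the 9 genes and without the wider pathway list, and were named from marker genes. They gave 23732 melanoma-like cells, 595 cells like cancer-associated fibroblasts (CAF-like), 251 cells like tumour-associated macrophages (TAM-like), 171 monocyte or neutrophil-like, 80 T/NK-like, 64 dendritic-like, 56 pericyte-like and 32 endothelial-like cells. Immune subclusters i1 (179 cells, led by Cxcl2, Mmp12 and Arg1) and i3 (119 cells, led by Cd74 and H2-Ab1) met no single name. The 10 CAF markers were all detected in the CAF-like cells of every tumour with at least 10 such cells, with a summed level of 27933 to 53194 CPM (the UMIs of a gene scaled to one common total of UMIs per sum), and the 10 melanoma markers reached 3.69% to 6.75% of their melanoma-like level in the same sums and 4.59% to 8.90% in TAM-like cells. The tumour of Atf4D/D replicate 3 held 8 CAF-like cells and that of Atf4wt/wt replicate 2 held 2 TAM-like cells, and these were left out of the respective fits. Atf4 itself was 325, 312, 282 and 252 CPM in CAF-like cells of the Atf4wt/wt hosts and 95.5, 75.6 and 46.7 CPM in those of Atf4D/D replicates 1, 2 and 4. The difference was -2.03 on the log2 scale (SE 0.25, adjusted p = 0.00332, edgeR), and in melanoma-like cells it was 0.03 (SE 0.14). Atf4 was thus lower but not absent in CAF-like cells of Atf4D/D hosts. The paper reports Atf4 mRNA as absent from the host clusters of Atf4D/D mice and reads this as host deletion. Where the 3′ tags lie relative to the targeted exons was not examined here. The counts are therefore not taken as a measure of excision, and the part of the melanoma RNA in the same sums was not tested.

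Inhba was the member most confined to fibroblasts. CAF-like cells were 2.11% of all kept cells and held 86.5% of all Inhba UMIs. Level is given as CPM of the class in a tumour or, where called pooled, over all tumours, which for 3′ tag counts is not scaled to gene length, so that no comparison is made between genes. In CAF-like cells, Inhba was 649, 599, 740 and 635 CPM in Atf4wt/wt replicates 1 to 4 and 434, 417 and 368 CPM in Atf4D/D replicates 1, 2 and 4. In melanoma-like cells it did not exceed 0.343 CPM in any tumour. The lowest CAF-like sum therefore stood far above the highest melanoma-like sum. The next largest number of Inhba UMIs, 97 (6.36%), was in the mixed cluster with collagen and melanoma markers, at 98.8 CPM. Pericyte-like cells held 10 UMIs (58.4 CPM) and monocyte or neutrophil-like cells 7 UMIs (40.7 CPM). Among immune cells, which held 62 Inhba UMIs in 864 cells, most were in subcluster i1, where 52 UMIs gave 191 CPM (95% Poisson interval 142 to 250, counting error only). TAM-like cells held 1 Inhba UMI in 251 cells against 1318 in the CAF-like cells, a ratio of 336 with a counting interval of 60.3 to 13300. Subcluster i1 was not counted among the TAM-like cells, although all 9 TAM markers had a UMI in at least 10% of its cells. The low TAM-like count therefore does not cover every macrophage-like cell. T/NK-like and dendritic-like cells held none, which leaves CAF-like cells at least 13.6-fold and 15.3-fold higher when 3 counts per class are taken as the limit of 0.

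Tgfb1, the broadly expressed isoform, was detected in every class. Its pooled level was 26.4 CPM in melanoma-like, 147 CPM in CAF-like, 216 CPM in TAM-like, 425 CPM in monocyte or neutrophil-like and 351 CPM in i3 cells. It was 315 CPM in endothelial-like cells (29 UMIs, interval 211 to 453) and 270 CPM in T/NK-like cells (23 UMIs, interval 171 to 405). By counting intervals, melanoma-like cells lay below every other named class but dendritic-like cells, which had 6 UMIs. The other classes are not ranked here, apart from CAF-like against TAM-like cells, which are tested below. Melanoma-like cells held 86.3% of the Tgfb1 UMIs, less than their 96.1% of all kept UMIs. Tgfb2 had a narrower range. It was 7.74 CPM in melanoma-like, 46.9 CPM in CAF-like and 64.3 CPM in pericyte-like cells, and 0 UMIs were found in 864 immune cells, which puts CAF-like cells at least 23.3-fold higher. Tgfb3 had its highest level in pericyte-like cells, the contractile mural cells of vessels, with 105 CPM (18 UMIs, interval 62.3 to 166) against 20.4 CPM in CAF-like cells (interval 15.4 to 26.4) and 2.20 CPM in melanoma-like cells.

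**Figure D1:**
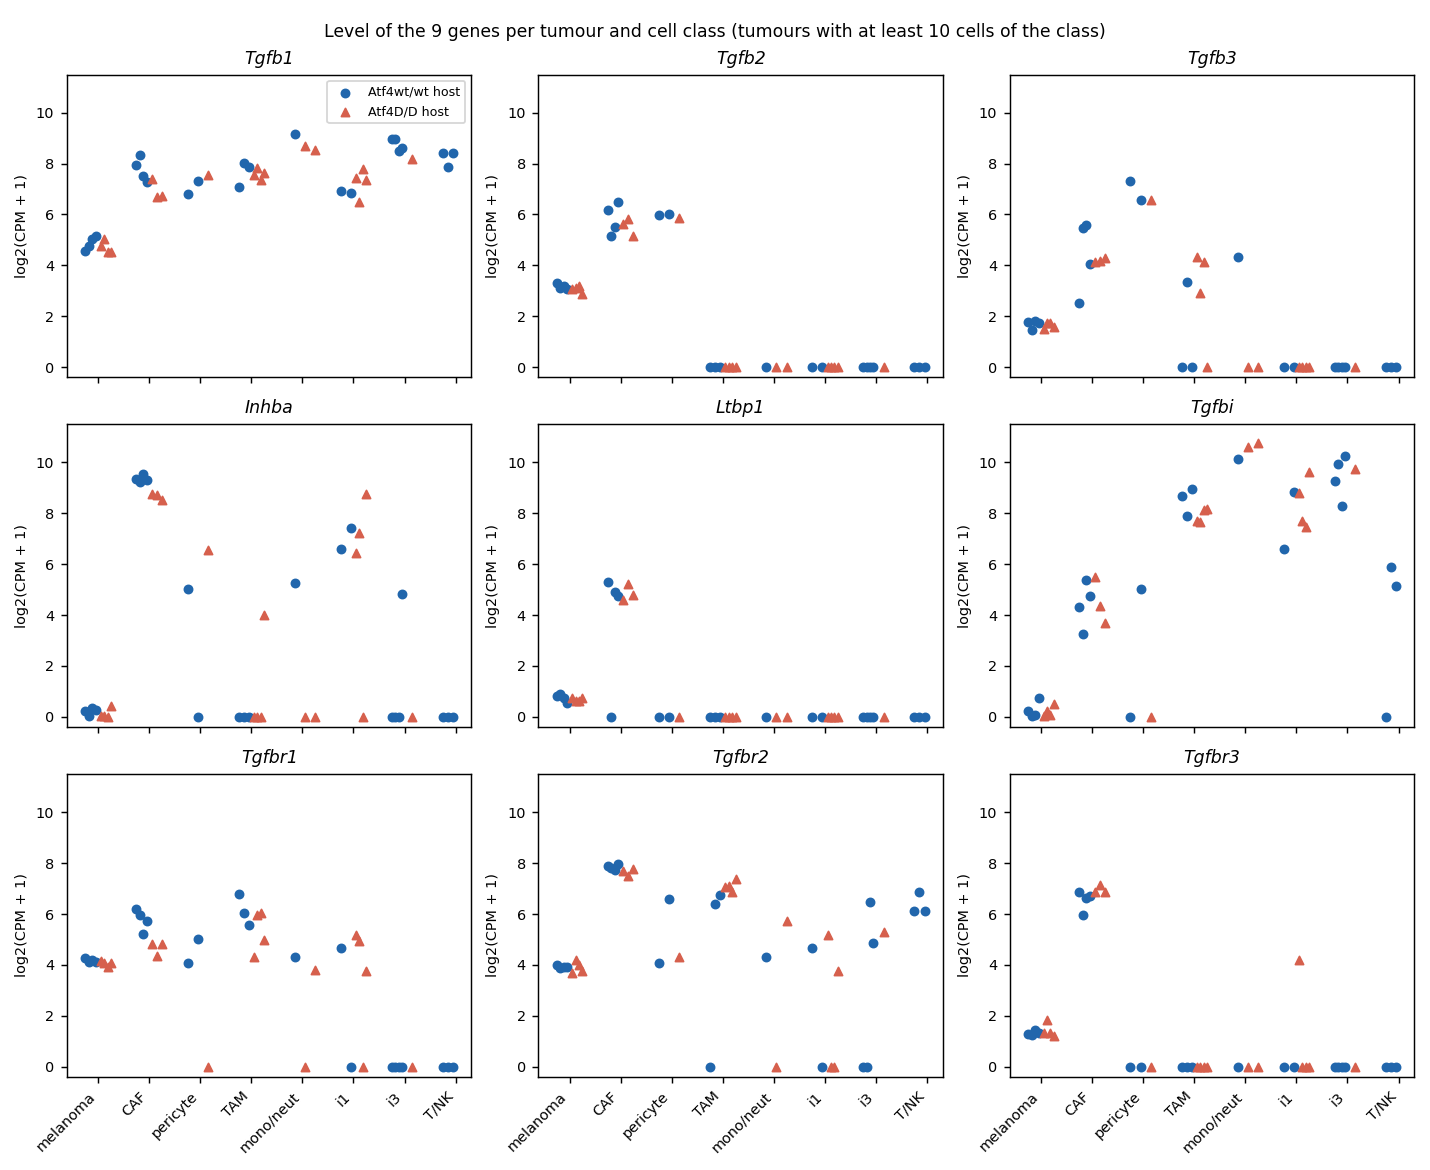
Level of each of the 9 genes on a log2(CPM + 1) axis by cell class, with 1 point per tumour that held at least 10 cells of the class (circles, Atf4wt/wt hosts; triangles, Atf4D/D hosts). Inhba reaches 368 to 740 CPM in CAF-like cells and stays at or below 0.343 CPM in melanoma-like cells, Tgfbi is highest in monocyte or neutrophil-like cells and i3, and Tgfb1 is present in every class.

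Among the receptors, Tgfbr2 and Tgfbr3 had far higher levels in CAF-like than in melanoma-like cells. Tgfbr2, the ligand-binding type II receptor, was 239, 226, 212 and 247 CPM in CAF-like cells of Atf4wt/wt hosts, and 208, 179 and 217 CPM in those of Atf4D/D replicates 1, 2 and 4. In melanoma-like cells it was 12.0 to 17.3 CPM over all 8 tumours, so the ranges did not overlap. Tgfbr3 was 60.8 to 140 CPM in CAF-like cells of these 7 tumours and 1.31 to 2.56 CPM in melanoma-like cells. A single Tgfbr3 UMI was found in 864 immune cells, and none in TAM-like cells, for which CAF-like cells were at least 26.5-fold higher. Tgfbr1, the signalling type I receptor, differed least between classes, with 16.4 CPM in melanoma-like, 34.5 CPM in CAF-like and 57.0 CPM in TAM-like cells. Ltbp1 was found at 27.3 CPM in CAF-like cells and 0.665 CPM in melanoma-like cells, and at 0 UMIs in all immune cells.

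Tgfbi, a secreted matrix protein named for its induction by TGF-beta, had the opposite distribution. Immune cells held 82.8% of its UMIs. The pooled level was 1513 CPM in monocyte or neutrophil-like, 812 CPM in i3, 426 CPM in i1 and 262 CPM in TAM-like cells, against 22.5 CPM in CAF-like cells. In TAM-like cells it was 406, 240 and 491 CPM in Atf4wt/wt replicates 1, 3 and 4 and 207, 203, 279 and 288 CPM in Atf4D/D replicates 1 to 4. Every one of these sums lay above the highest CAF-like sum of 43.6 CPM.

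To ask which of these differences exceeded the spread between tumours, UMIs were summed per tumour and class and compared within tumours in edgeR (quasi-likelihood F-test), and p-values were adjusted by Benjamini-Hochberg over all genes tested. In the 7 tumours fitted, the 9 members were each called higher in CAF-like than in melanoma-like cells, beside a background of 59.4% of 11845 genes called (25.5% higher and 33.9% lower). The log2 differences were 11.78 (SE 0.20) for Inhba, 6.86 (SE 0.50) for Tgfbi, 6.21 (SE 0.22) for Tgfbr3, 5.47 (SE 0.36) for Ltbp1 and 4.09 (SE 0.12) for Tgfbr2. They were 3.44 (SE 0.34) for Tgfb3, 2.93 (SE 0.21) for Tgfb2, 2.73 (SE 0.16) for Tgfb1 and 1.27 (SE 0.21) for Tgfbr1. The largest adjusted p among them, that of Tgfbr1, was 4.81e-06, and the median difference over all genes was -0.20. Inhba and Tgfbi did not pass the filter on low counts within melanoma-like cells (35 and 49 UMIs in 23732 cells) and entered this fit through the CAF-like group, so that their direction, and with it the count of members, was largely fixed by the filter. The calls were retained when 55 CAF-like cells that held melanoma RNA were set aside.

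The wider pathway followed the same side. Of 81 listed genes, 68 were tested between CAF-like and melanoma-like cells and 56 were higher and 4 lower, with a median log2 difference of 2.77. Of 21 target genes that passed the filter 21 were higher, but 4 of them (Acta2, Ldlrad4, Snai1 and Tgfbi) had not passed it in melanoma-like cells, where 17 were tested, and the same was true of Fst, Lrrc32 and Ltbp2 below, so the count is no support for a direction. The largest differences were those of Lox, a collagen cross-linking enzyme (11.81, SE 0.24), Postn, a matricellular protein (10.73, SE 0.18) and Acta2, smooth muscle actin (10.52, SE 0.22). Of 11 tested latency and activation genes 10 were higher, among them Ltbp2 (10.86), Lrrc32, the cell-surface anchor of latent TGF-beta (10.18), and Thbs1, which can activate it (8.84), and 1 was lower, the myeloid anchor Nrros (-3.75, SE 0.89). Of 8 inhibitors tested 6 were higher, led by the activin-binding protein follistatin, Fst (11.30, SE 0.25), and the inducible Smad antagonist Pmepa1 (5.94, SE 0.12). Of 11 receptors 7 were higher and 2 lower (Acvr2b, -1.66, and Eng, -0.80), and of 9 Smads and co-repressors 7 were higher, led by Skil (2.81), and 1 lower (Tgif2, -1.63).

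In TAM-like against melanoma-like cells (41.1% of 11409 genes called, 14.2% higher and 26.9% lower), 4 members were higher. The log2 differences were 10.37 (SE 0.33) for Tgfbi, which again entered through the host class, 2.86 (SE 0.27) for Tgfbr2, 2.78 (SE 0.22) for Tgfb1 and 1.72 (SE 0.32) for Tgfbr1, with adjusted p of at most 7.83e-07 (edgeR). Tgfb2, with 0 UMIs in TAM-like cells, entered through the melanoma-like class and could only be called lower. Melanoma-like cells were at least 1.81-fold higher. Tgfb3 had a value of 1.61 (SE 0.78, adjusted p = 0.0853). Between the host classes (59% of 3117 genes called, 34% higher and 25% lower in CAF-like cells), Tgfbr2 was higher in CAF-like than in TAM-like cells by 0.96 (SE 0.23, adjusted p = 0.000447) and Tgfbi lower by -3.34 (SE 0.27). Inhba and Tgfbr3 were also called higher, with the ratio and the bound given above. Both entered through the CAF-like group, so their direction was largely fixed by the filter. Tgfb1 was lower in CAF-like cells by -0.46 (SE 0.20, adjusted p = 0.0463), a call lost with DESeq2 (adjusted p = 0.253), without a filter on low counts (-0.20) and without Atf4D/D replicate 2 (-0.25), Atf4D/D replicate 4, Atf4wt/wt replicate 3 or Atf4wt/wt replicate 4.

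Within the CAF-like cells, Inhba and Tgfb1 on one side and Tgfbr2 and Tgfbr3 on the other differed between subclusters in opposite directions. These cells fell into 5 subclusters: f0 (164 cells, led against its peers by Cxcl14, Cilp and Mgp), f1 (151 cells, Serpinb2, Ereg and Cxcl5), f2 (102 cells, Pgf, Ndrg1 and Rgs16), f3 (95 cells, Cxcl13, Pi16 and Clec3b) and f4 (83 cells, with the cycle genes Tpx2 and Mki67). Inhba and Tgfb1 were highest in f2 and lowest in f3, and Tgfbr2 and Tgfbr3 showed the reverse order. The pooled Inhba level was 1428 CPM in f2 (interval 1310 to 1554), 498 CPM in f1, 415 CPM in f0, 241 CPM in f4 and 11.4 CPM in f3 (5 UMIs, interval 3.71 to 26.7). The f2 cells, which shared Ndrg1, Slc2a1, Ero1l and Hilpda, genes known for their response to low oxygen, thus held 534 of the 1318 fibroblast UMIs of Inhba. The subclusters were found in the same cells with the 9 genes left out of the clustering, so the tests that follow describe how steady a difference was over tumours and are no test between groups defined apart from these cells.

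**Figure D2:**
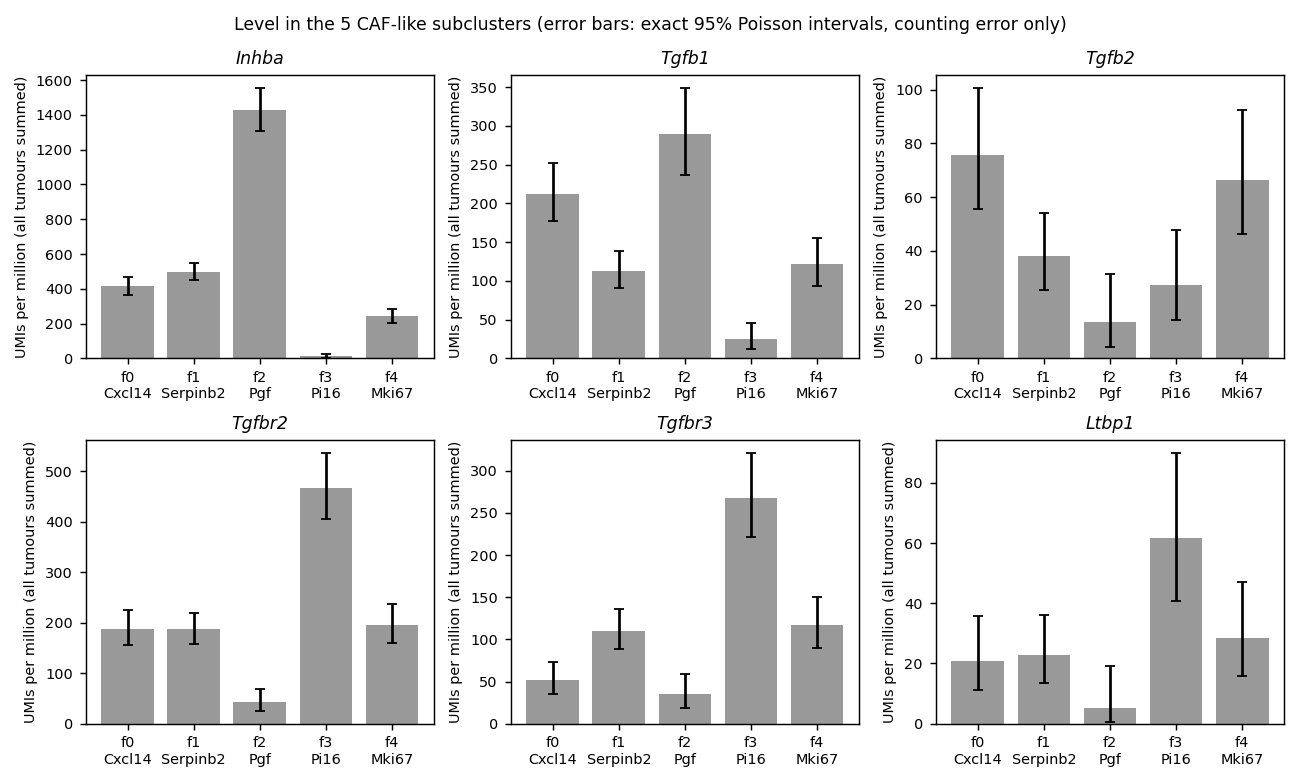
Pooled level in CPM of 6 genes in the 5 CAF-like subclusters, all tumours summed, with exact 95% Poisson intervals that cover counting error only. Inhba and Tgfb1 peak in f2 (1428 and 289 CPM), while Tgfbr2 and Tgfbr3 peak in f3 (466 and 268 CPM).

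In f2, Inhba was 2625 CPM against 445 CPM in the other CAF-like cells of Atf4wt/wt replicate 3. The values were 1316 against 211 CPM in Atf4D/D replicate 1, 1126 against 260 CPM in replicate 2 and 1174 against 254 CPM in replicate 4. Each of the 4 tumours with enough f2 cells thus showed the same direction, and the log2 difference was 2.46 (SE 0.18, adjusted p = 1.27e-08, edgeR). Of 4 members tested in f2 (28.7% of 2826 genes called, 15.1% higher and 13.6% lower), 2 were higher and 2 lower. Tgfbr2 and Tgfbr3, the lower ones, held 12 and 11 UMIs in f2. They passed the filter on low counts through the other CAF-like cells, so their direction was largely fixed by it. Tgfb1 rose by 1.33 (SE 0.24, adjusted p = 0.000461), from 144, 135, 85.5 and 88.8 CPM to 433, 288, 170 and 222 CPM in the same tumours. Tgfbr2 fell by 2.62 (SE 0.36, adjusted p = 2.96e-05), from 215 to 250 CPM in the other cells to 15.4 to 81.2 CPM in f2. Tgfbr3 fell by 1.97 (SE 0.43, adjusted p = 0.00187), and 0 UMIs were found in f2 of Atf4wt/wt replicate 3. Tgfb2, too low to be tested there, did not follow Tgfb1: it was 0, 20.6, 0 and 14.8 CPM in f2 of the 4 tumours (4 UMIs) and 50.8, 54.6, 68.4 and 37.6 CPM in the other cells. Tgfb3 was higher in f2 in 2 tumours and lower in 2 (7 UMIs).

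In f3, all 4 of these members passed the test in the opposite direction, beside 17.6% of 3023 genes called, 10.3% higher and 7.31% lower. Inhba was 0, 24.6, 0 and 9.0 CPM in f3 of Atf4wt/wt replicate 1 and Atf4D/D replicates 1, 2 and 4, against 771, 517, 492 and 459 CPM in the other CAF-like cells. Tgfb1 was 0, 24.6, 0 and 18.0 CPM against 289, 195, 119 and 127 CPM. The fitted log2 differences of -5.52 (SE 0.38) for Inhba and -3.28 (SE 0.44) for Tgfb1 rest on 4 and 6 UMIs in f3 of these tumours. Both genes passed the filter on low counts through the other CAF-like cells, so their direction, and with it the count of members, was largely fixed. Tgfbr2 rose by 1.52 (SE 0.20, adjusted p = 4.68e-07), with 513, 406, 350 and 492 CPM in f3 against 187, 167, 148 and 147 CPM in the other cells. Tgfbr3 rose by 1.76 (SE 0.24, adjusted p = 1.25e-06), with 392, 222, 368 and 253 CPM against 62.4, 94.9, 99.0 and 81.5 CPM. In no tumour did the f3 value and that of the other cells trade places for any of the 4 genes. The calls in f2 and f3 were retained in every alternative tried, all of which kept the filter on low counts. Tgfb2 in f3 was -0.68 (SE 0.47, adjusted p = 0.39), and Ltbp1, which was not tested, had its highest pooled level there with 61.7 CPM (interval 40.7 to 89.8) against 5.35 CPM in f2 (2 UMIs).

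**Figure D3:**
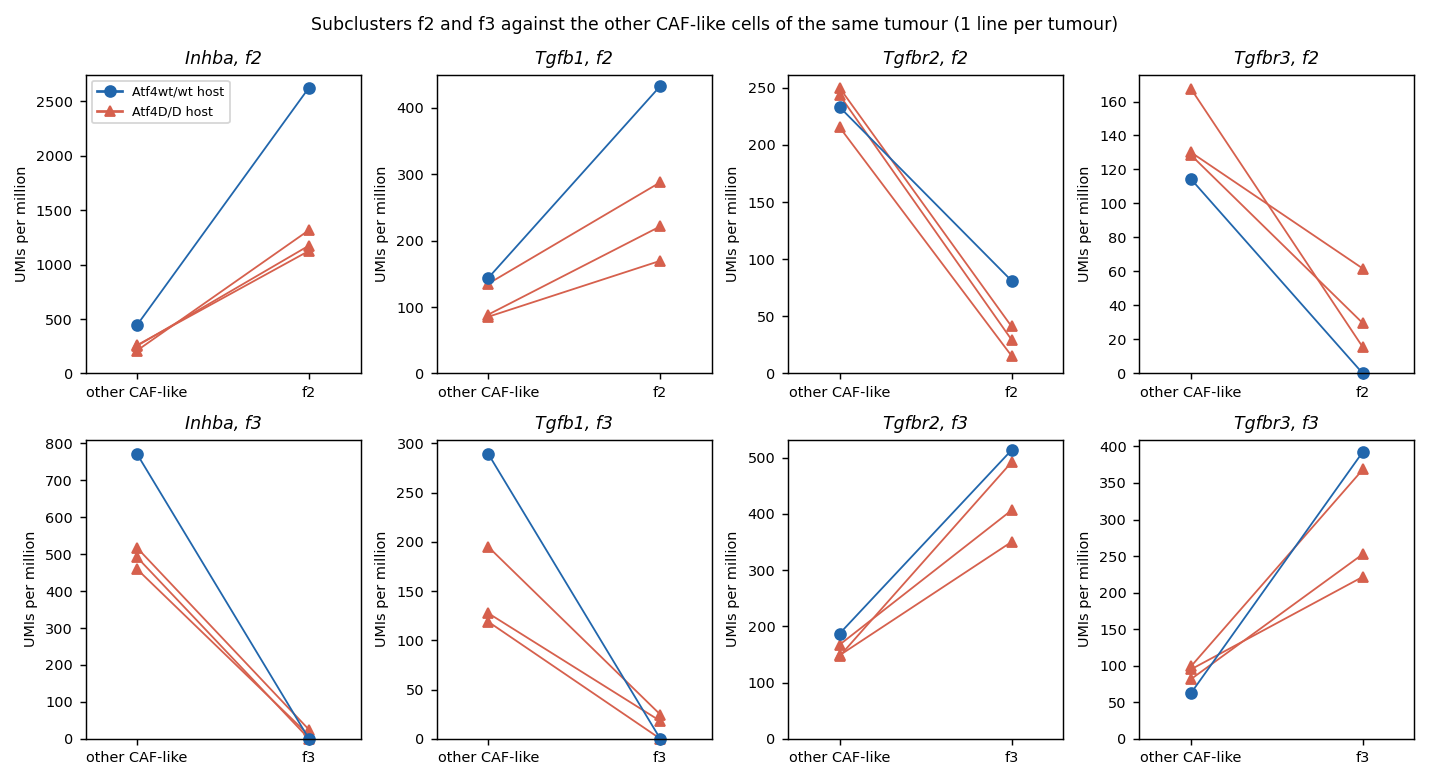
Level in CPM of Inhba, Tgfb1, Tgfbr2 and Tgfbr3 in subcluster f2 (top) and f3 (bottom) against the other CAF-like cells of the same tumour, with 1 line per tumour (circles, Atf4wt/wt; triangles, Atf4D/D). Every line of Inhba and Tgfb1 rises to f2 and falls to f3, and every line of both receptors does the reverse.

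Fewer members were called in the other subclusters. In f0 (13.6% of 1880 genes called), Tgfbr3 was lower by -1.27 (SE 0.31, adjusted p = 0.00815), a call that was lost without Atf4D/D replicate 4 (adjusted p = 0.0574). In f4 (10.1% of 2453 genes called), Inhba was lower by -1.31 (SE 0.35, adjusted p = 0.0231), which was lost with DESeq2 (adjusted p = 0.229) and without Atf4wt/wt replicate 3 (-0.88), Atf4D/D replicate 1 or Atf4D/D replicate 4. In f1 (4.64% of 2196 genes called) no member passed the test by edgeR. Tgfb3, at low counts and without a call, was higher in f0 than in the other CAF-like cells in all 7 tumours (32 and 24 UMIs). It was lower in f1 in all 6 tumours compared (2 and 49 UMIs) and had 0 UMIs in f3 against 35 in the other cells of 4 tumours.

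Other genes of the pathway differed between f2 or f3 and the remaining CAF-like cells, some of them in the same direction in both, and f2 was not compared with f3 directly. In f2, 11 of 38 tested list genes were higher and 7 lower, with a median of -0.09. The inhibitors Fstl3, which binds activin (2.31, SE 0.42), and Smad7, which blocks receptor signalling (1.31, SE 0.27), were higher, and Fst was lower (-1.76, SE 0.35). Of 16 targets 4 were higher, among them Sphk1 (1.62), Bhlhe40 (1.26) and Angptl4 (1.02), and 3 were lower: Acta2 (-2.10), Ctgf (-1.34) and Postn (-0.75). Bhlhe40 and Angptl4 are known to respond to low oxygen as well as to TGF-beta. In f3, 6 of 40 were higher and 10 lower (median -0.14), with Acta2 (-2.63), Tagln (-2.29), Ctgf (-1.12) and Timp1 (-1.06) among 6 lower targets, and Fst higher (1.09, SE 0.23). The contractile genes Tagln (1.69) and Acta2 (1.44) were higher in f0, together with Ctgf (1.26) and Postn (0.79), where Lox was lower (-0.65).

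Among immune subclusters, only Tgfb1 and Tgfbi were abundant enough to be tested in every fit. Tgfbi was higher in the monocyte or neutrophil-like cells i2 than in other immune cells by 1.45 (SE 0.23, adjusted p = 0.000698; 10.7% of 1818 genes called, 3 tumours). It was lower in the T/NK-like cells i4 by -4.12 (SE 0.64, adjusted p = 8.78e-05; 29.3% of 1198 genes called, 3 tumours). This value rests on 2 UMIs in i4 against 219 in the other immune cells. Tgfbi passed the filter on low counts through those other cells, so its direction there was largely fixed. In the main TAM-like subcluster i0 (26.5% of 1248 genes called), i1 (25.2% of 913) and i3 (6.18% of 631) no member passed. Tgfb1 had values of 0.87 (SE 0.29, adjusted p = 0.0746) in i2 and 0.58 (SE 0.26, adjusted p = 0.286) in i3. Inhba in i1 was 96.2, 173, 0 and 0 CPM in Atf4wt/wt replicates 1 to 4 and 86.7, 149, 0 and 437 CPM in Atf4D/D replicates 1 to 4, so that 35 of its 52 UMIs came from Atf4D/D replicate 4. The genes that led i1 against its peers included Slc2a1, Ndrg1 and Hilpda, which also led f2 among the CAF-like cells.

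Within melanoma-like cells the members varied with cell state, by smaller amounts. Clusters were described by their leading genes: c0 by Car9 and Bnip3, c1 by Nupr1 and Fgf21, c2 by Rrm2 and Pclaf, c3 by Cenpa and Ccnb2, c4 by Kcnj13 and Trpm1, c5 by Ube2c and Cenpf, c6 by Ung and Cdt1, c7 by Espn and Cenpf, c11 by Ifit1 and Rsad2 and c14 by Lgals3. The co-receptor Tgfbr3 varied most. It was 2.81 CPM in c0, where the summed hypoxia markers also had their highest level (5368 CPM), and 0.897 and 0.888 CPM in c3 and c5, both led by mitotic genes. Against the other melanoma-like cells of the same tumours, Tgfbr3 was higher in c0 by 1.17 (SE 0.20, adjusted p = 1.22e-05) and in c1 by 0.48, and lower in c5 by -0.95 (SE 0.26), in c3 by -0.88 (SE 0.27) and in c2 by -0.66 (SE 0.23).

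Tgfb1 in melanoma-like cells ranged from 18.0 CPM in c7 and 18.6 CPM in c3 to 38.8 CPM in c4. It was higher in c4 by 0.62 (SE 0.08, adjusted p = 6.26e-08), in c14 by 0.31, in c2 by 0.23 and in c1 by 0.15. It was lower in c3 by -0.51 (SE 0.07), in c7 by -0.49 (SE 0.10), in c5 by -0.22 and in c0 by -0.18. Tgfb2 had another order, with its highest level in c14, where it reached 16.02 CPM (log2 difference 1.04, SE 0.18, adjusted p = 4.53e-07), and a higher level in c3 (0.50, SE 0.10), where Tgfb1 was lower. It was lower in c2 (-0.49), c7 (-0.48) and c0 (-0.47). Tgfb3 was higher in c3 (0.61, SE 0.18) and lower in c2 (-0.47, SE 0.19). The signalling receptors moved least, with the called differences of Tgfbr1 between -0.23 (c4) and 0.27 (c7) and those of Tgfbr2 between -0.25 (c5) and 0.46 (c14).

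Of the 6 members tested in each cluster (7 in c7, with Ltbp1), 5 were called in c0 (62.7% of all genes called there), 4 in c2 (64%) and 4 in c3 (50.4%). The count was 3 in c1 (65.7%), c4 (50.5%), c5 (53%), c7 (48.7%) and c14 (35.3%). No member was called by edgeR in c6 (37.7%) or in c11 (4.78%).

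**Figure D4:**
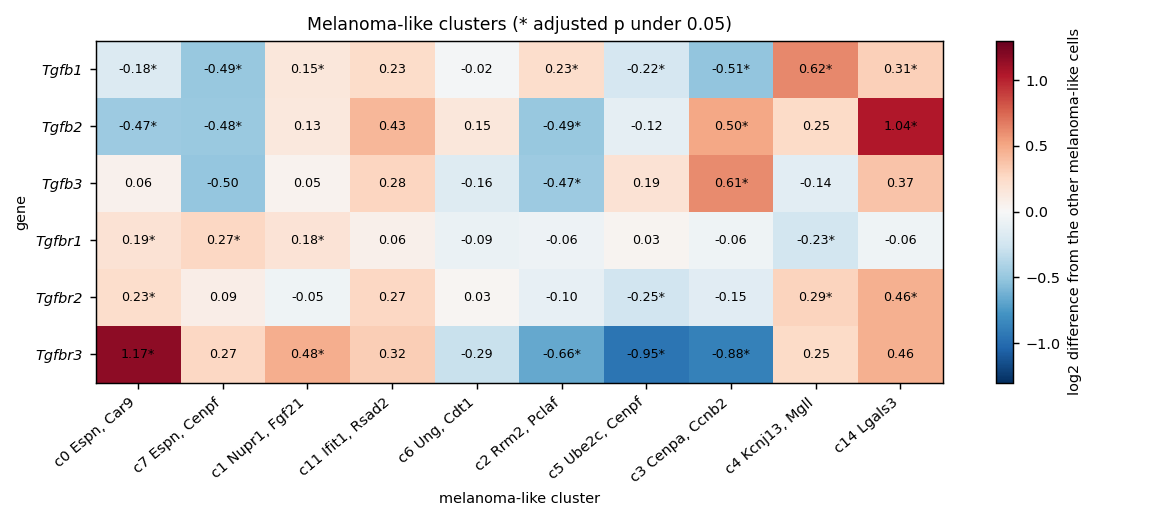
Log2 difference of 6 genes between each of 10 melanoma-like clusters and the other melanoma-like cells of the same tumours (edgeR, tumour as block; asterisk, adjusted p under 0.05). Tgfbr3 ranges from 1.17 in c0 to -0.95 in c5, Tgfb2 reaches 1.04 in c14 and Tgfb1 0.62 in c4.

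Host genotype moved no member past the threshold in any class (edgeR). In CAF-like cells, 12 of 4144 genes were called (0.29%) and 327 had an unadjusted p under 0.05. Inhba had the smallest adjusted p of the members: 599 to 740 CPM in the 4 Atf4wt/wt tumours and 368 to 434 CPM in the 3 Atf4D/D tumours fitted, with no overlap. The edgeR log2 difference was -0.66 (SE 0.15, adjusted p = 0.0801), and DESeq2 gave -0.68 with an adjusted p of 0.0235. Atf4D/D replicate 3, left out for its 8 CAF-like cells, had 954 CPM from 30 UMIs, above every Atf4wt/wt tumour. When pericyte-like and mixed collagen cells were added, so that all 8 tumours entered, the difference was -0.27. Tgfbr1 was 71.6, 60.8, 36.6 and 52.5 CPM in Atf4wt/wt and 27.0, 19.6 and 27.5 CPM in Atf4D/D tumours (-1.02, SE 0.32, adjusted p = 0.282), and the tumour left out had 95.4 CPM from 3 UMIs. Tgfb1 was 243, 321, 183 and 152 CPM against 166, 101 and 105 CPM (-0.78, SE 0.27, adjusted p = 0.365), with overlapping groups. Tgfb2 was -0.45 (SE 0.31), Tgfbr2 -0.15 (SE 0.17) and Tgfbr3 0.36 (SE 0.21), all within the spread, and Tgfb3, Ltbp1 and Tgfbi were too low to be tested.

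**Figure D5:**
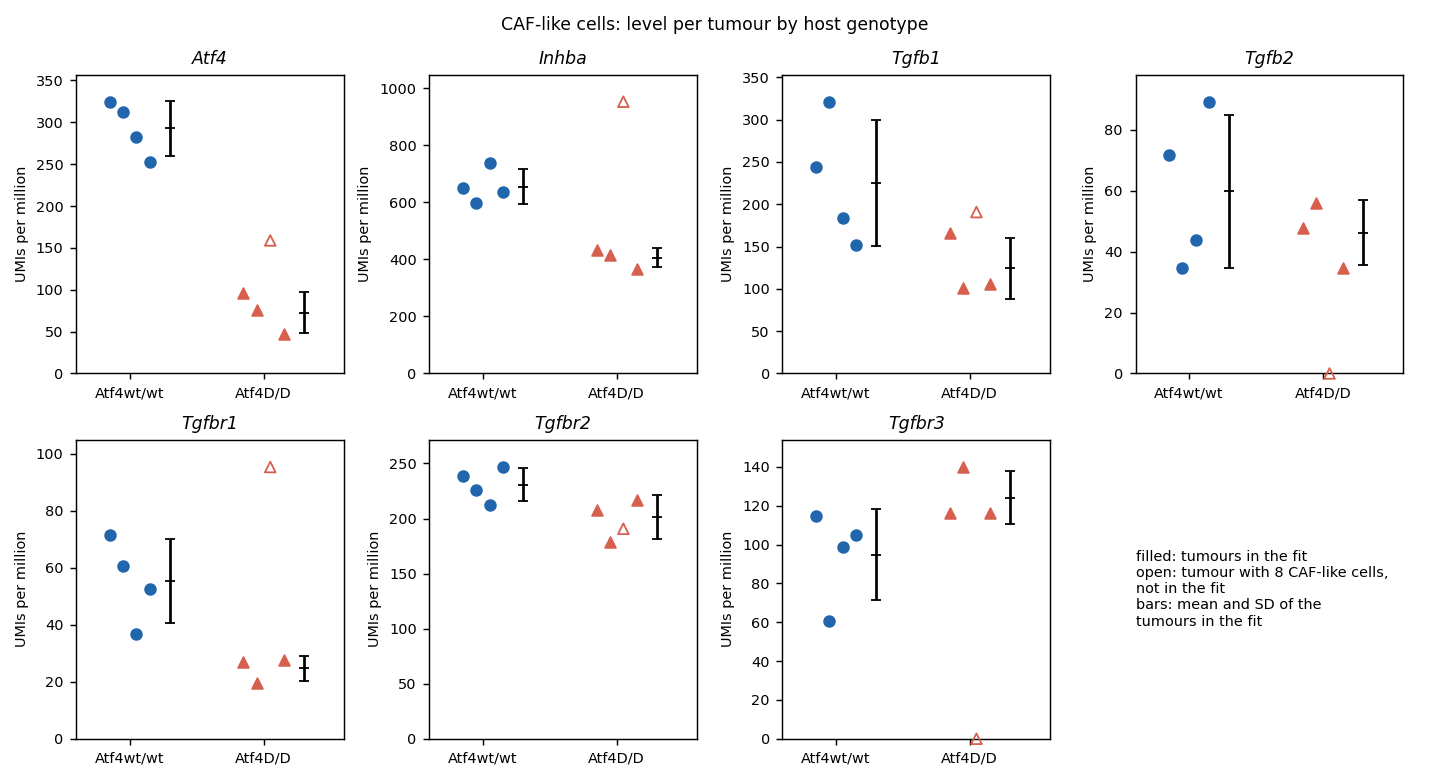
Level in CPM of Atf4 and 6 members in CAF-like cells by host genotype, with 1 point per tumour and the mean and SD of the fitted tumours beside them (4 Atf4wt/wt, 3 Atf4D/D). The open triangle is the Atf4D/D tumour with 8 CAF-like cells; it has 954 CPM of Inhba, where the fitted Atf4D/D tumours have 368 to 434 CPM.

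The make-up of the CAF-like cells was set side by side, without a test, for the 4 Atf4wt/wt and the 3 Atf4D/D tumours fitted. The ranges of each share below overlapped. The share of f2 was 0% to 20% (median 13.5%) in Atf4wt/wt and 15.8% to 24.5% (median 22.2%) in Atf4D/D tumours, and that of f3 was 3.85% to 20.7% and 17.0% to 18.9%. The median share of f0 ran the other way, with 26.7% to 61.5% (median 35.01%) and 18.9% to 30% (median 21.7%). Atf4D/D replicate 3, not fitted, had 87.5% of its few CAF-like cells in f0. Acta2, which differed by genotype between cell classes as given below, was higher in f0 than in the other CAF-like cells, and the part of these shares was not tested. The pooled Inhba level was 2370 CPM in f2 of Atf4wt/wt (170 UMIs) and 1204 CPM in f2 of Atf4D/D tumours (364 UMIs), 697 and 248 CPM in f0, 691 and 430 CPM in f1, and 268 and 225 CPM in f4. These are sums over tumours without a test of genotype, and 1 tumour could carry them. They include Atf4D/D replicate 3, with 7 cells in f0 and 1 in f2. In f1, Inhba was 70.8, 1315 and 337 CPM in Atf4wt/wt replicates 1, 3 and 4 and 470, 314 and 440 CPM in Atf4D/D replicates 1, 2 and 4, so that the tumours overlapped. In f0 it was 916, 267, 288 and 1400 CPM in the Atf4wt/wt tumours and 139, 167 and 250 CPM in Atf4D/D replicates 1, 2 and 4, where the nearest values, 267 and 250 CPM, lay close together. Atf4D/D replicate 3, with 7 f0 cells, is not among these, and its CAF-like cells stood above every Atf4wt/wt tumour, as given above. The summed CAF markers were 27933 to 42837 CPM in Atf4wt/wt and 40664 to 53194 CPM in Atf4D/D tumours, and the pericyte markers 42.0 to 226 CPM and 20.1 to 58.8 CPM, and their part in the values of the members was not tested.

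In TAM-like cells (1 of 1109 genes called, 0.0902%), Tgfb1 and Tgfbi could be tested. Tgfb1 was 135, 259 and 230 CPM in Atf4wt/wt and 188, 225, 164 and 197 CPM in Atf4D/D tumours (-0.10, SE 0.28). Tgfbi was -0.58 (SE 0.28, adjusted p = 0.587), with overlapping groups. In melanoma-like cells (0.0319% of 12554 genes called) the 7 members tested differed by -0.23 (Ltbp1, SE 0.25) to 0.15 (Tgfbr3, SE 0.22), and Tgfb1 by -0.21 (SE 0.15). In whole tumours, 0 of 13117 genes passed (0%) by edgeR, with 1369 at an unadjusted p under 0.05 and 114 called by DESeq2, none of them a member. In these sums fewer cells of a type and less RNA per cell cannot be told apart. Whole-tumour Inhba was 2.39 to 8.40 CPM in Atf4wt/wt and 0.838 to 13.9 CPM in Atf4D/D hosts, with both extremes in the Atf4D/D tumours of 8 and 196 CAF-like cells.

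The genotype effect itself was compared between CAF-like and melanoma-like cells by an interaction term (0.777% of 11845 genes called). No member passed by edgeR, with values of -0.90 (SE 0.38, adjusted p = 0.591) for Tgfbr1, -0.58 (SE 0.24, adjusted p = 0.523) for Tgfb1 and -0.37 (SE 0.52) for Inhba. Of the 21 listed targets tested, 4 passed. Lox (-1.72, SE 0.30), Acta2 (-1.60, SE 0.42) and Fn1, fibronectin (-0.65, SE 0.15), were lower, and the cycle inhibitor Cdkn1a was higher (1.28, SE 0.21). The summed CAF markers in melanoma-like cells were 11.2, 8.10, 13.2 and 18.3 CPM in Atf4wt/wt replicates 1 to 4. They were 30.0, 23.5 and 49.8 CPM in Atf4D/D replicates 1, 2 and 4. The part of such fibroblast RNA in these 4 terms was not tested, and Acta2 had not passed the filter in melanoma-like cells. Cdkn1a was also the 1 listed gene called by genotype within CAF-like cells (1.18, SE 0.22, adjusted p = 0.0354). None of the other 48 listed genes tested there passed.

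The genes most like each member were sought over 25 sums of a class in a tumour (8 melanoma-like, 7 CAF-like, 6 TAM-like, 2 monocyte or neutrophil-like and 2 pericyte-like), on log2(CPM + 10). Sums of 1 tumour share a library and sums of 1 class share their depth, so Pearson's r is given as a description. For Inhba the closest were Csgalnact1 (0.978), the matrix protein tenascin C, Tnc (0.978), and Loxl1, which cross-links elastin (0.977). Tgfb2 was closest to Dcbld2 (0.974) and the collagen cross-linker Loxl2 (0.972), Tgfbr3 to the scavenger receptor Ackr3 (0.998) and Gfpt2 (0.998), and Tgfbr2 to Spp1 (0.964) and Sh3pxd2b (0.958). Tgfbi was closest to the macrophage growth factor receptor Csf1r (0.968) and Slfn2 (0.966), Tgfb1 to Ostf1 (0.954) and Ltbp1 to Tmeff2 (0.969). The likeness was lowest for Tgfbr1, with Agfg1 (0.816), and for Tgfb3, with Mical1 (0.846) and Acta2 (0.845).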

How the data were processed

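Libraries were made with a 10x Genomics 3′ kit from dissociated tumours. Alignment was to GRCm38 by Cell Ranger 3.1.0, per the submitters' processing notes, which also name Seurat 3.2.1. The authors deposited 1 table of UMI counts for each tumour, by gene and barcode, without normalization. Removal of doublets was not stated. The labels and the paper differ on the kit version, the age of the mice and, within the paper, on the Cell Ranger version. Groups and replicate numbers were taken from the labels. The members, the pathway and marker lists and the tests were chosen with earlier results of these data known.

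After the study's methods, cells needed 200 to 5000 genes and no more than 7.5% of mitochondrial counts, and genes had to be present in 3 cells or more. Of the kept cells, 192 carried a barcode found in more than 1 library (0 to 9 per pair of libraries). With Seurat 5.3.0 in R 4.3.3, the tumours of each genotype were merged, the genotypes integrated and the cells clustered to 16 clusters on 1970 variable genes, from which the 9 members and the 81 listed pathway genes had been removed. Collagen-expressing and immune clusters were clustered again at a resolution of 0.8. Classes were named where at least 2 of the 10 leading genes were markers of the class and at least 3 had a UMI in no less than 10% of cells, and melanoma-like clusters where at least 3 melanoma markers were found in 50% or more, limits that were set on these data. A cluster of 241 cells with the highest mitochondrial share (231 from Atf4wt/wt replicate 4), 2776 cells in unnamed clusters of low UMI number, and 83 collagen and 32 immune cells with melanoma markers entered no class. No doublet caller was run, and such mixed cells were set aside by cluster only.

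UMI counts were summed per tumour and class, leaving out tumours with fewer than 10 cells of a class, and tested with edgeR 4.0.16 (filterByExpr, TMM, quasi-likelihood test, two-sided, Benjamini-Hochberg adjustment over all genes tested, threshold 0.05), with the tumour as a block for differences between classes. The replicate is the tumour. Intervals are exact 95% Poisson intervals, and 3 counts were taken as the limit that a count of 0 allows; both cover counting error only. In simulated counts with known changes, the genotype fit recovered 59% of 2-fold and 99% of 4-fold changes in CAF-like cells (4144 genes), 96% and 99% in melanoma-like cells (12554 genes). Named pathway genes were the up to 5 per role and direction with the largest differences among those called, and for each member the 3 most similar genes over sums of at least 50000 UMIs were listed, among genes with at least 200 UMIs. Alternatives were DESeq2 1.42.0, no filter on low counts, leaving out each tumour, the replicate number or the sex of the mouse as a term, clustering with the listed genes kept in, leaving out host cells that carried melanoma RNA (55 of 595 CAF-like and 63 of 251 TAM-like cells), and a minimum of 20 cells. Wider classes, the tests of immune subclusters and all alternatives for the CAF-like subclusters were added after seeing the data. Tumours with the same genotype were further apart than counting noise gives (chi-square per gene 11.5 to 45.6 over 12 pairs). Promoter sequences came from RefSeq (7 of 9 members matched). Some genes are not reported here.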

Additional observations from a re-analysis of the deposited data

Results flagged for a closer look

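In groups of 4 tumours, 57 sets of values of the members and Atf4 were examined for a sample far from the rest. Of these, 3 stood out, where chance gives about 1 in 20. All 3 concerned Atf4D/D replicate 4, the tumour with most CAF-like cells. Its Inhba level in TAM-like cells was 15.2 CPM (1 UMI) and 0 in the other 3, its Inhba level in melanoma-like cells was 0.343 CPM (11 UMIs) against 0.0365 CPM in the next, and its Tgfb2 level over all kept cells was 7.32 CPM, below the next of 8.02 CPM.

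The effect of host genotype differed between CAF-like and melanoma-like cells, by the interaction term of the edgeR fit, for Atf4 itself (-1.99, adjusted p = 3.35e-15) and for 4 listed targets of the pathway. These were Lox (-1.72, adjusted p = 5.77e-06), Acta2 (-1.60, adjusted p = 0.0216), Fn1 (-0.65, adjusted p = 0.00333) and Cdkn1a (1.28, adjusted p = 2.47e-06). Of these targets only Cdkn1a was called by genotype within CAF-like cells, and the limit given above on CAF markers in melanoma-like cells applies to all 4.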

How the results depend on the processing

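The 9 differences between CAF-like and melanoma-like cells and the calls of Inhba, Tgfb1, Tgfbr2 and Tgfbr3 in f2 and f3 were retained under every alternative run. For f2 and f3, every alternative kept the filter on low counts. Counts of called genes moved by more than 1.5 times in these cases. DESeq2 called 60 genes in f1, 539 in f2, 296 in f3 and 108 in f4, and by genotype 25 in CAF-like cells, 118 in melanoma-like cells and 114 in whole tumours. Without a filter on low counts, 3736 genes were called between CAF-like and TAM-like cells and, by genotype, 114 in CAF-like, 14 in TAM-like and 7 in melanoma-like cells. By genotype, adding pericyte-like and mixed collagen cells left 2 calls in the fibroblast fit. In TAM-like cells 2 genes were called with at least 20 cells per tumour, 2 with a term for sex and 0 without cells that carried melanoma RNA, and in melanoma-like cells 0 with a term for sex. Without each tumour in turn the counts ranged from 6158 to 6887 (CAF-like against melanoma-like), 3813 to 4853 (TAM-like against melanoma-like), 1374 to 2042 (CAF-like against TAM-like), 173 to 258 (f0), 53 to 103 (f1), 593 to 812 (f2), 341 to 577 (f3) and 94 to 403 (f4), and by genotype from 5 to 18 (CAF-like), 0 to 3 (TAM-like), 0 to 21 (melanoma-like) and 0 to 2 (whole tumours). The causes were not tested.

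Leaving out a tumour turned the sign of some uncalled genotype values: Tgfb1 in TAM-like cells (range -0.28 to 0.10), Atf4 (-0.10 to 0.10), Tgfbr2 (-0.14 to 0.0186) and Tgfbr3 (-0.0914 to 0.26) in melanoma-like cells, and Inhba (-0.0315 to 0.91), Ltbp1 (-0.0506 to 0.39) and Tgfbi (-0.35 to 1.12) in whole tumours, where the lowest values came without Atf4D/D replicate 4. Inhba by genotype in CAF-like cells ranged from -0.72 to -0.57 (adjusted p 0.0750 to 0.401). The depth of CAF-like and TAM-like sums limits which members can be tested.

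The replicate numbers did not pair the tumours: the 4 same-numbered pairs correlated at -0.357 to -0.0553 in their deviations from the group means and the 12 others at -0.259 to 0.291. With the replicate block, 76 genes were called by genotype in CAF-like cells, Tgfb1 among them (-0.84, adjusted p = 0.0367), and 0 in melanoma-like cells.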
